A study of Mus musculus with 6 samples.

Results

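The genes described here carry the names of the cell division cycle and of centriole duplication: cyclins, cyclin-dependent kinases (CDKs) and their inhibitors, Cdc genes, the Mcm2 to Mcm7 helicase, E2F factors, Polo-like and Aurora kinases, Bub checkpoint genes, centromere genes, Pcna, Mki67 and topoisomerase II. The rule that chose them uses only the gene symbol and was written with earlier results of these data known. It was applied to probe sets that the platform annotation assigns to exactly 1 gene; genes whose symbol begins with Cdc42 were left out. The rule found 114 probe sets for 86 genes, of 12422 probe sets and 8251 genes on the array. Probe sets are the array's units of measurement, each a group of short oligonucleotides against a transcript. Ccnb1 and Cdk6 were not analysed here.

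Messenger RNA was measured in the striatum of 3 Hdh4/Q80 mice and 3 wild-type littermates, 1 Affymetrix array per mouse. Per the labels, all 6 animals were 12-month-old C57BL/6 females. The Hdh4/Q80 line, which the labels call transgenic, models Huntington's disease with a lengthened CAG repeat in the mouse's own huntingtin gene, Htt. The sources used here do not give zygosity. A striatal dissection holds neurons, glia, vessel cells and whatever adjoining tissue came with it. Replicates are numbered as in the labels, 4 to 6 for wild type and 7 to 9 for Hdh4/Q80.

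Cyclins rise and fall through the division cycle and switch on CDKs, which CDK inhibitors hold in check. E2F factors then drive the genes for DNA replication, and a later wave of genes with CCAAT and CHR promoter elements serves mitosis. Centrioles, the barrels at the core of the centrosome and at the base of cilia, are copied once per cycle under the kinase Plk4. Most cells of the adult striatum are neurons that have left the cycle. Dividing cells are few there, mainly glial precursors and the progenitors of the neighbouring ventricular wall, and several cycle genes have other uses in neurons, Cdk5 above all.

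Values are log2 expression after robust multi-array average (RMA) normalization, and differences are Hdh4/Q80 minus wild type on that scale. Array medians lay between 7.10 and 7.13. Hdh4/Q80 replicate 8 stood apart, with a mean correlation to the other arrays of 0.992, against 0.995 to 0.997 for the remaining 5. Its lower quartile was the highest of the 6 arrays (5.86, against 5.79 to 5.84) and its upper quartile the lowest (8.16, against 8.20 to 8.23). Penk, a defining transcript of striatal projection neurons, was high on every array. No detection calls were used here. As a guide to readings without a template, 7 probe sets of 5 Y-linked genes read 3.31 to 7.07 in these females. The highest reading was Sry in Hdh4/Q80 replicate 8. On the brightest probe set of each, 5 of the 5 Y-linked genes lay above 0 (median difference 0.09), and 1 of them, Uba1y, had an unadjusted p under 0.05 (0.29 ± 0.11). Whether this bears on the differences of dim members, Plk4, E2f8 and Bub1 among them, was not tested. Of the member probe sets, 52 never exceeded that highest reading (45.6%, against 45.6% of all probe sets) and 51 exceeded it in every mouse. Probe sets differ in affinity and some bind related transcripts, so this guide does not call any single gene absent.

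No cell cycle or centriole gene passed the test between the genotypes. With limma, adjusted by Benjamini-Hochberg over all 12422 probe sets, 0 of the 114 had an adjusted p under 0.05, beside 0% of all probe sets. The smallest adjusted p among them was 0.857. Unadjusted, 6 member probe sets had a p under 0.05, 5 higher and 1 lower in Hdh4/Q80. That is 5.26% of the members, beside 5.1% of all probe sets, so the share is near the background. By direction the background was 2.9% higher and 2.21% lower. Leaving out wild-type replicate 6 gave 2 in place of 6 (1.75% of the members, beside 2.02% of all probe sets). Without Hdh4/Q80 replicate 7 there were 9 (7.89%, beside 8.44%), and with array weights 15 (13.2%, beside 14.6%). Without Hdh4/Q80 replicate 8 there were 5 (4.39%, beside 4.03%). The members' share thus moved with that of all probe sets.

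Differences were spread on both sides of 0. They were above 0 in 54 member probe sets and below 0 in 60 (47.4% above, beside 48.9% of all probe sets), with a median of -0.0072, beside -0.0027 over all. The lowest was -0.28, for Cdc34, and the highest 0.41, for Plk4. For 112 of the 114 the 95% interval lay inside a 1.5-fold change in either direction on the array scale; Plk4 and that Cdc34 probe set were the exceptions. The groups did not overlap for 16 probe sets, 9 higher and 7 lower in Hdh4/Q80 (14.0%, beside 11.7% of all probe sets, 6.67% higher and 5.05% lower). The members also varied between mice much as other probe sets did, with a median SD within groups of 0.0965, beside 0.099.

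**Figure D1:**
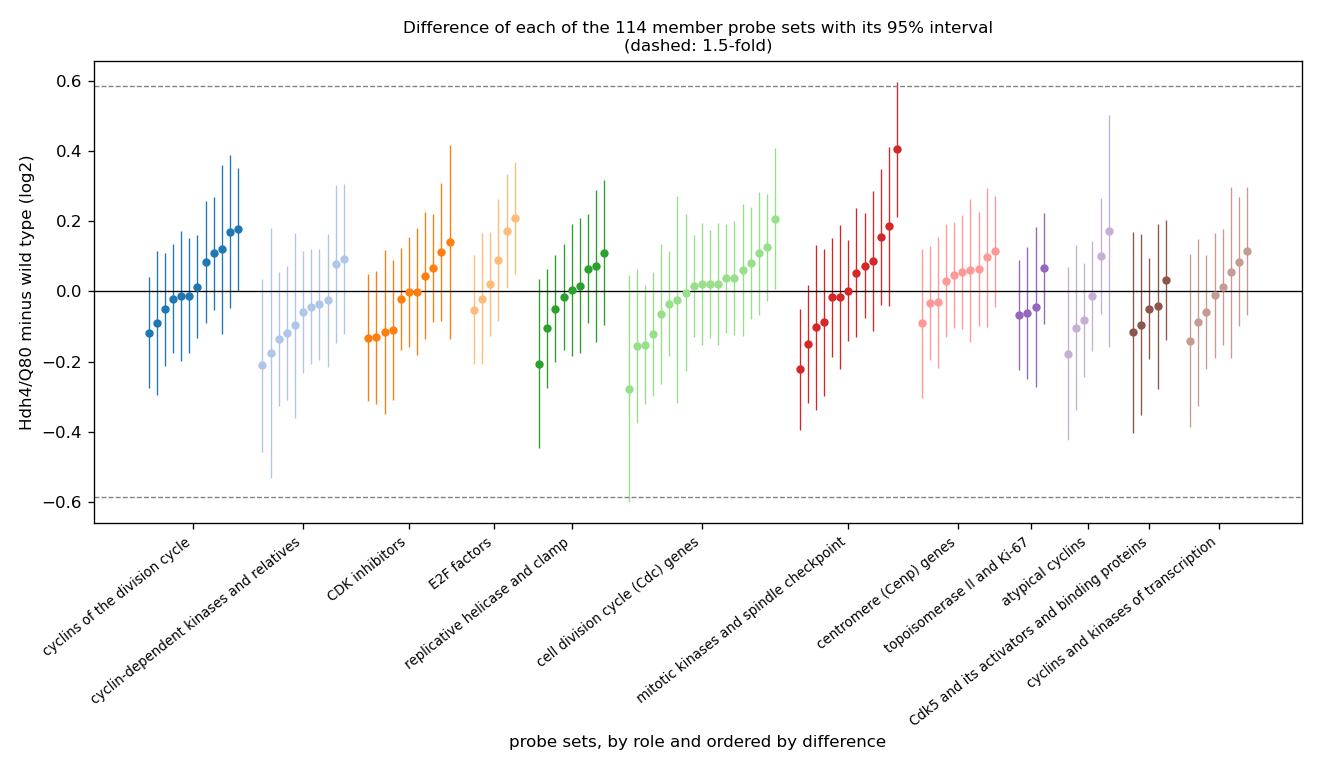
Difference (Hdh4/Q80 minus wild type, log2) of each of the 114 member probe sets, grouped by role and ordered within each group; bars are limma's 95% intervals and dashed lines mark 1.5-fold. Points lie on both sides of 0 in every group, and the Plk4 point at 0.41 is the highest.

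The promoters of 4 members are shown to set sequence beside expression. Ccnb2 and Cdc20, mitotic genes, are among the 6 with an unadjusted p under 0.05; Cdk1, the mitotic kinase, has a small difference; Plk4 has the largest one. The sequences are RefSeq's, build GRCm38.p6, 250 bases before to 50 after the annotated start, 5′ to 3′ on the gene's strand. Capitals mark matches on either strand to the CCAAT box (CCAAT), the cell cycle homology region or CHR (TTTGAA) and E2F sites (TTTGGCGC, TTTCCCGC, TTTGCCGC or TTTCGCGC).
Ccnb2, chr9:70421505-70421804, minus strand: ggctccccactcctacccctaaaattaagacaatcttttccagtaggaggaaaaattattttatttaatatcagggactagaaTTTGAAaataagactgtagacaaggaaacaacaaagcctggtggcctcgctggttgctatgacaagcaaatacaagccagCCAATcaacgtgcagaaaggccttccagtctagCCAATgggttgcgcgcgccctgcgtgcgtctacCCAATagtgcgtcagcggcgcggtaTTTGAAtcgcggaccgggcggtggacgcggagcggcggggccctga
Cdc20, chr4:118437294-118437593, minus strand: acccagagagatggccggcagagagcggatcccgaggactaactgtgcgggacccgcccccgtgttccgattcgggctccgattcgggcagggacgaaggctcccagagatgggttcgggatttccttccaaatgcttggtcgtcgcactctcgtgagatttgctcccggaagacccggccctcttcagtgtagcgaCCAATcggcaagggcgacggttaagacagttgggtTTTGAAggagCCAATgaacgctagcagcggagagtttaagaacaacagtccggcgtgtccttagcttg
Cdk1, chr10:69352863-69353162, minus strand: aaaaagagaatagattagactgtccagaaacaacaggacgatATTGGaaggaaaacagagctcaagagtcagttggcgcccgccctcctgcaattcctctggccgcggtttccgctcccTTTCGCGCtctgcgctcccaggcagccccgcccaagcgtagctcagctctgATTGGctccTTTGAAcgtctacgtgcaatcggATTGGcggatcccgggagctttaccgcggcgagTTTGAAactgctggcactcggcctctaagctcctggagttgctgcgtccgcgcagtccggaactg
Plk4, chr3:40799701-40800000, plus strand: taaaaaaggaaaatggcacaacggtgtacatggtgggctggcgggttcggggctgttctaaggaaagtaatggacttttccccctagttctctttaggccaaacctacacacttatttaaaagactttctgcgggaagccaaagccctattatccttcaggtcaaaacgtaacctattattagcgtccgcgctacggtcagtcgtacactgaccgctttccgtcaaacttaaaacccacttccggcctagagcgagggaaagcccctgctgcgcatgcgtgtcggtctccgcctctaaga

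The Ccnb2 window held 3 CCAAT and 2 CHR matches, that of Cdc20 held 2 CCAAT and 1 CHR match, and that of Cdk1 held 3 CCAAT, 2 CHR and 1 E2F match. The Plk4 window held 0 of any of them, which says only that these letters are not in these 300 bases. Promoters were found for 74 of the 86 genes, 87 windows in all. CCAAT stood in 63.2% of these windows and in 37.4% of all 32851 windows of that length. TTTGAA stood in 25.3% and 17.9%, and an E2F site in 13.8% and 2.26%. Both CCAAT and TTTGAA stood in 20.7% and 6.95%. The 22 member probe sets of the 17 genes with both had a median difference of 0.05, with 13 above 0. The 77 probe sets of the other 57 genes had a median of -0.016, with 33 above 0. These groups were not matched for brightness, and 61.0% of members below the median level lay above 0, against 32.7% of brighter ones. Whether the matches bear on the differences was not tested. A match is a description of the letters, not evidence of a working site.

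Plk4 builds new centrioles, and its single probe set had the smallest p of all members. It read 6.15, 5.99 and 6.11 in wild-type replicates 4, 5 and 6 and 6.33, 6.59 and 6.54 in Hdh4/Q80 replicates 7, 8 and 9. The 3 mutants all lay above the 3 wild types, with replicate 7 nearest to them. The means were 6.08 ± 0.0839 and 6.49 ± 0.135 (SD, n = 3 mice each), a difference of 0.41 (95% interval 0.21 to 0.60), or 1.32-fold. In limma's test the unadjusted p was 0.000871 and the adjusted p 0.857, so Plk4 did not pass. With any 1 mouse left out the difference ran from 0.36 to 0.48, and without Hdh4/Q80 replicate 8 it was 0.36. The values lie below the highest reading of the Y-linked probe sets, and no other Plk4 probe set could check them.

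The other Polo-like kinases gave no common direction. Plk1, the mitotic Polo kinase, has 3 probe sets, all with suffixes that mark less specific probes. One read 8.56, 8.56 and 8.58 in wild type and 8.65, 9.0 and 8.61 in the mutants, a difference of 0.19 ± 0.101 (SE) with replicate 8 far above the rest. A second read 6.26, 6.32 and 6.31 against 6.26, 6.04 and 6.15, a difference of -0.15 ± 0.0753 that became -0.097 without replicate 8. On each of these the groups were apart by a narrow margin, in opposite directions. The last differed by -0.09 with overlapping groups. Plk2, an activity-induced kinase of synapses, was bright and read 11.05, 10.96 and 10.88 against 11.03, 10.76 and 11.05, a difference of -0.02 (interval -0.22 to 0.19). Plk3, a stress-responsive kinase measured by 1 probe set that also carries such a suffix, read 12.23, 12.28 and 12.19 against 12.31, 12.57 and 12.29. Its groups did not overlap (difference 0.16, interval -0.04 to 0.35), the lowest mutant stood only just above the highest wild type, and replicate 8 was the highest mouse.

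**Figure D2:**
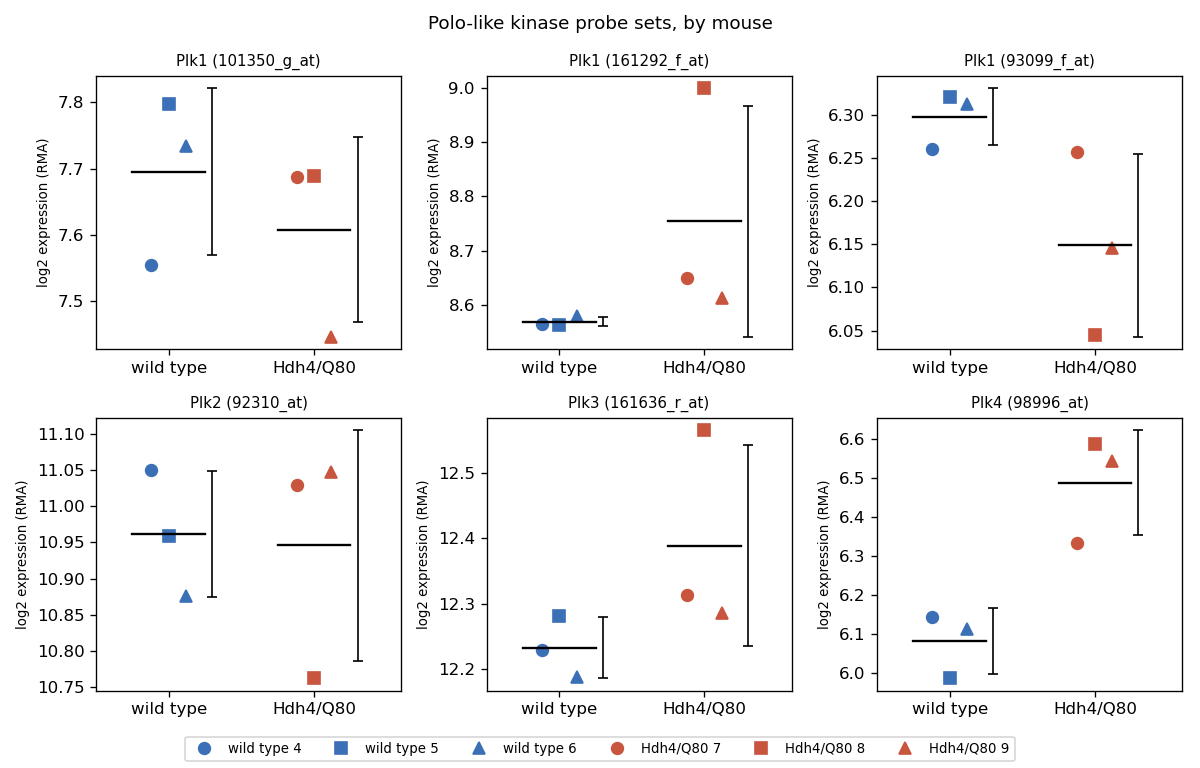
Log2 expression of the 6 Polo-like kinase probe sets in each mouse; symbols are mice, horizontal lines group means and bars 1 SD (n = 3 mice). Plk4 separates the groups with the largest difference (0.41). Plk3 and the Plk1 probe sets at 0.19 and -0.15 also separate them, the Plk1 probe sets in opposite directions. The last Plk1 probe set and Plk2 overlap.

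Cyclins of the division cycle, 12 probe sets for 11 genes with their binding proteins Ccnb1ip1 and Ccndbp1, were above 0 in 6 and below in 6 (median 0.00055). Ccnb2, a mitotic cyclin, read 7.77, 7.78 and 7.75 in wild type and 7.84, 8.09 and 7.91 in Hdh4/Q80 mice. The groups did not overlap, and replicate 8 was the highest mouse. Its difference of 0.18 ± 0.0787 (SE) had an unadjusted p of 0.049 (limma, adjusted p = 0.857), and became 0.11 without replicate 8. Ccna2, the S and G2 phase cyclin, read 8.36, 8.43 and 8.27 against 8.41, 8.73 and 8.43. Replicate 8 alone stood out, and the difference of 0.17 became 0.065 without it.

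The D cyclins, which answer growth signals in G1, had small differences. Ccnd1 differed by -0.02 and -0.05 on its probe sets and Ccnd3 by 0.01 (interval -0.13 to 0.16). Ccnd2, which progenitors of the adult brain depend on, read 7.23, 7.30 and 7.30 in wild type and 7.24, 7.08 and 7.15 in the mutants, a difference of -0.12 ± 0.071 with overlapping groups. Ccne1, the G1/S cyclin, differed by -0.01. Among the atypical cyclins Ccng1, a p53 target, differed by -0.01 (interval -0.17 to 0.14). Ccng2, linked to cell cycle exit, differed by -0.18 ± 0.11, which became -0.076 without Hdh4/Q80 replicate 8 and -0.083 without wild-type replicate 4. Ccnj differed by 0.10 ± 0.074. The 3 probe sets of Ccni, a cyclin of stable level in postmitotic cells, differed by -0.08, -0.10 and 0.17; the last became -0.018 without replicate 8.

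Of 11 probe sets for CDKs and their associated proteins 9 lay below 0 (median -0.06). That left 18.2% above 0, beside 48.9% of all probe sets and 39.8% of those at or above the median level. The group's median level was 7.56, above that of all probe sets (7.12). Cdk1 read 7.16, 7.26 and 7.08 in wild type and 7.15, 7.16 and 7.02 in Hdh4/Q80 mice, with overlapping groups and a difference of -0.06 (interval -0.23 to 0.12). Cdk2, its S phase relative, differed by 0.09 and 0.08, with overlapping groups. Replicate 8 alone stood out on both probe sets, at 4.93 (other mice 4.56 to 4.70) and 6.33 (other mice 5.96 to 6.07). Cdk4, the partner of the D cyclins, differed by -0.04 ± 0.0731 on its bright probe set. The dimmer one differed by -0.21 ± 0.11, where replicate 8 was lowest (5.75) and the difference became -0.080 without it. Cdk2ap2 did not overlap between groups (-0.12 ± 0.0854), again with replicate 8 lowest at 7.62, and became -0.031 without it. Its relative Cdk2ap1 differed by -0.13 ± 0.0857, and by -0.077 without wild-type replicate 4. Cdk14, a membrane-linked relative, had the largest spread within groups of all members: wild type alone ran from 7.43 to 8.08.

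Genes with Cdkn names, most of them CDK inhibitors, gave no separation that passed, in 11 probe sets for 9 genes (4 above 0, 7 below). Cdkn3 and Cdkn2aipnl are counted here by name only. Cdkn1a (p21), the p53-driven brake, read 8.88, 8.91 and 8.95 in wild type and 8.92, 8.89 and 8.87 in the mutants, a difference of -0.02 (interval -0.17 to 0.13); its other probe set differed by 0.07. Cdkn1b (p27), which holds cells in quiescence, differed by -0.12 and -0.11, with overlapping groups. Replicate 8 was the lowest mouse on the first probe set (6.35). The other carries a suffix that marks less specific probes and was dim, with a mean of 3.39, below every array's lower quartile. Cdkn2a, the locus of p16 and p19Arf that marks senescence, differed by -0.13 (interval -0.31 to 0.05), and by -0.062 without Hdh4/Q80 replicate 9. Its neighbour Cdkn2b (p15) differed by 0.11 ± 0.0881, and by 0.047 without replicate 8. Cdkn2d (p19Ink4d), an inhibitor that keeps neurons out of the cycle, read 9.17, 9.13 and 9.18 against 9.13, 8.86 and 9.10. Its groups were separate by a narrow margin (-0.13 ± 0.0845), and the difference became -0.045 without replicate 8.

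Cdk5 and its activators serve postmitotic neurons, where they act on migration and synapses. Cdk5 read 9.49, 9.32 and 9.40 in wild type and 9.44, 9.12 and 9.52 in the mutants, a difference of -0.04 (interval -0.28 to 0.19). Replicates 7 and 9 lay within or above the wild-type range, and replicate 8 lay below it. The activator Cdk5r1 (p35) differed by -0.09 (interval -0.35 to 0.16) and was -0.021 without replicate 8 and 0.10 with array weights. Cdk5r2 (p39) differed by -0.12, and by 0.053 without replicate 8. Cyclins and kinases of transcription split evenly, 4 above 0 and 4 below. Cdk9 of the elongation factor P-TEFb differed by 0.12 ± 0.0817 (0.048 without replicate 9 and 0.18 without replicate 8). Cdk8 of Mediator differed by 0.05 ± 0.109, with replicate 8 the lowest mouse (7.52) and replicate 9 the highest (7.98). Cdk11b differed by 0.08, -0.14 and -0.06 on its 3 probe sets, and the second of these became -0.0027 without replicate 8. Cdk5rap3, named for binding a Cdk5 activator, differed by -0.05 and 0.03.

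E2F factors held 2 of the 6 probe sets with an unadjusted p under 0.05. E2f8, an atypical repressor of the family, read 4.95, 4.91 and 4.86 in wild type and 5.03, 5.18 and 5.14 in Hdh4/Q80 mice. The groups did not overlap (0.21 ± 0.0714, unadjusted p = 0.0156, adjusted p = 0.857 in limma's test). This probe set carries a suffix that marks less specific probes and lay below every array's lower quartile, and the other E2f8 probe set differed by 0.09 with overlapping groups. E2f1, the activator of S phase genes, read 6.87, 7.05 and 6.98 against 7.09, 7.18 and 7.14 on one probe set, again with such a suffix (0.17 ± 0.0729, unadjusted p = 0.0404, adjusted p = 0.857). Its other probe set read 6.08, 5.90 and 6.00 against 5.95, 6.10 and 5.87, a difference of -0.02. So the E2f1 probe sets differed in sign.

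DNA replication members lay on both sides of 0: 9 probe sets for the helicase and the sliding clamp Pcna had a median of 0.0039. They ran from -0.21 to 0.11, with a median absolute difference of 0.064, beside 0.066 over all probe sets. Mcm2 differed by 0.07, with replicate 8 the highest mouse (7.78) and replicate 9 the lowest (7.38). Mcm7 differed by 0.0039, and the 2 probe sets of Mcm5 by -0.11 (-0.043 without replicate 8) and 0.02. Mcm6 read 4.45, 4.71 and 4.81 in wild type and 4.45, 4.30 and 4.60 in Hdh4/Q80 mice, a dim probe set with overlapping groups (-0.21 ± 0.108; -0.13 without replicate 8 and also without wild-type replicate 6). Pcna read 8.42, 8.35 and 8.31 against 8.34, 8.67 and 8.40. Replicate 8 stood above the other 5 mice, and the difference of 0.11 became 0.013 without it. Among the Cdc genes of replication, Cdc6 and Cdc45, which load and start the helicase, differed by 0.11 and 0.06, and Cdc7, the kinase that fires origins, by 0.02.

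Genes of mitosis gave differences in both directions. Cdc20, the activator of the anaphase-promoting complex, read 7.13, 7.02 and 6.90 in wild type and 7.23, 7.35 and 7.09 in Hdh4/Q80 mice. Mutant replicate 9 lay below wild-type replicate 4, so the groups overlapped (0.21 ± 0.0901, unadjusted p = 0.0445, adjusted p = 0.857 in limma's test; 0.14 without replicate 8). Bub1, a checkpoint kinase of the kinetochore, read 4.34, 4.39 and 4.53 against 4.26, 4.21 and 4.12 on one probe set, whose suffix marks less specific probes. The groups did not overlap (-0.22 ± 0.0773, unadjusted p = 0.0171, adjusted p = 0.857), but the other Bub1 probe sets differed by 0.09 and -0.02. All 3 were dim, below the lower quartile of every array. Aurka, the spindle pole kinase, differed by 0.0016 (interval -0.14 to 0.15) and Aurkb, of the chromosomal passenger complex, by 0.07 with groups apart by a narrow margin.

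**Figure D3:**
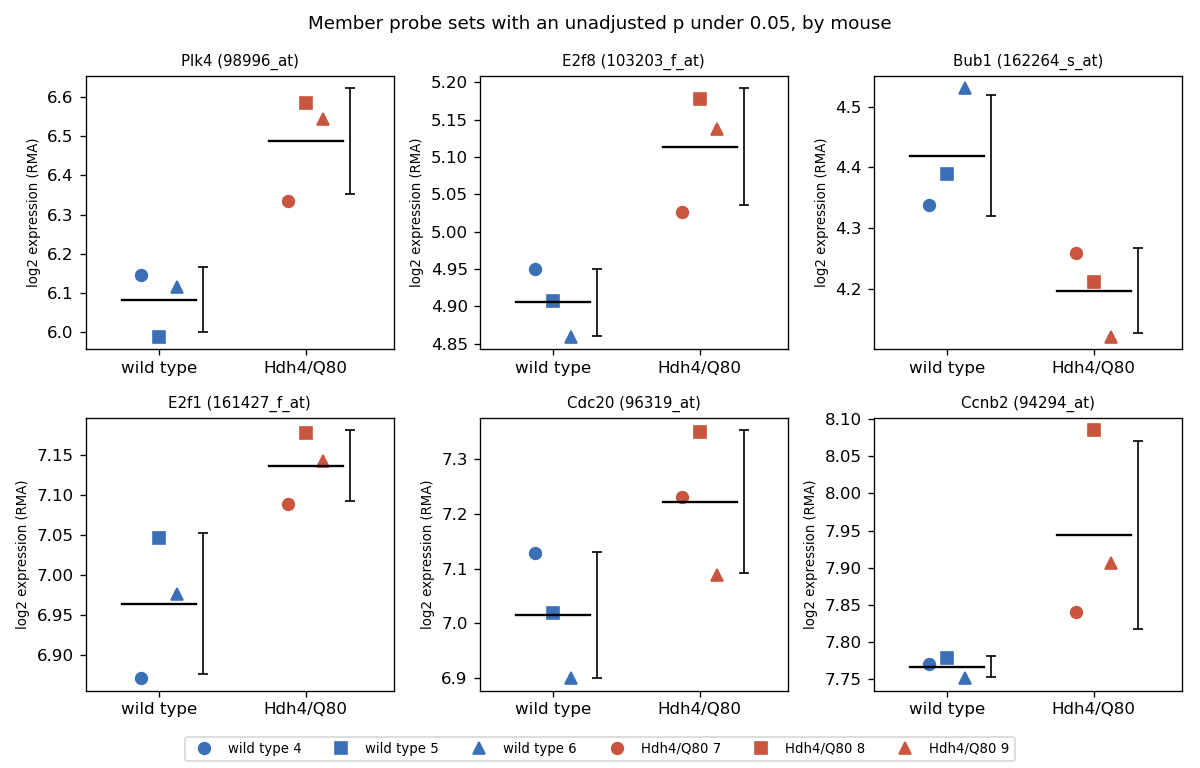
Log2 expression by mouse of the 6 member probe sets with an unadjusted p under 0.05 in limma's test, none of which passed after adjustment; symbols are mice, lines group means and bars 1 SD (n = 3 mice). Plk4, E2f8, E2f1 and Ccnb2 lie higher and Bub1 lower in every Hdh4/Q80 mouse, while Cdc20 overlaps; each axis has its own range.

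Further Cdc genes work in protein turnover and folding. Cdc34, a ubiquitin-conjugating enzyme for cycle regulators, read 8.13, 8.09 and 8.25 in wild type and 8.12, 7.49 and 8.03 in Hdh4/Q80 mice. Replicate 8 was far below the other 5 mice, and the difference went from -0.28 to -0.080 without it. Cdc37, the cochaperone that brings kinases to Hsp90, read 9.70, 9.55 and 9.61 against 9.51, 9.37 and 9.52. Its groups did not overlap (-0.15 ± 0.076, unadjusted p = 0.073, adjusted p = 0.857 in limma's test). The anaphase-promoting complex subunits Cdc16, Cdc23 and Cdc26 differed by -0.04, by 0.02 and -0.0035 on the Cdc23 probe sets, and by -0.12.

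Of 10 centromere probe sets 7 lay above 0 (median 0.05). Their median level was 6.18, and of all probe sets below the median level 58.0% lay above 0. Cenpa, the histone variant that marks centromeres, read 7.40, 7.38 and 7.35 in wild type and 7.40, 7.55 and 7.53 in Hdh4/Q80 mice, with groups that part only beyond the second decimal (0.11 ± 0.0707). Cenpb, which binds satellite DNA, differed by -0.09, and by 0.013 without replicate 8. Cenpx, of the same group, differed by 0.10 ± 0.0893, and by 0.012 without replicate 8. Markers of dividing cells gave no difference that passed. Mki67, which is present in cycling cells and lost on exit, differed by -0.07 and 0.07 on its probe sets. The first carries a suffix that marks less specific probes. The second was dim, with a mean of 3.90, below every array's lower quartile. Top2a, the topoisomerase of dividing cells, read 5.81, 6.06 and 5.86 against 5.76, 5.87 and 5.92, a difference of -0.06 (0.012 without wild-type replicate 5). Top2b, its counterpart in postmitotic neurons, differed by -0.04.

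Genes with several probe sets did not always agree in sign. Of 24 such genes, 10 had all probe sets on the same side of 0 and 14 had them on both sides. Ccnd1, Cdc25a, Cdc25c, Cdc34, Cdk2, Cdk4, Cdk14, Cdkn1b, Cenpe and E2f8 were the 10. The share over all genes with several probe sets was not computed, so no trait particular to these genes is read from the counts.

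Readings in Hdh4/Q80 replicate 8 depended on brightness. Among the 59 member probe sets below the median level of all probe sets (7.12), replicate 8 was the highest mouse in 23 and the lowest in 11. Among the 55 brighter ones it was the highest in 10 and the lowest in 28. All probe sets did likewise, with replicate 8 lowest in 45.8% of the brighter ones and highest in 32.8% of the dimmer ones. The median genotype difference was 0.037 for dimmer and -0.035 for brighter members, and 0.0081 and 0.0041 without replicate 8. Ccna2, Ccnb2, Pcna and Plk3 were among the 10 brighter members that read highest in this mouse.

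**Figure D4:**
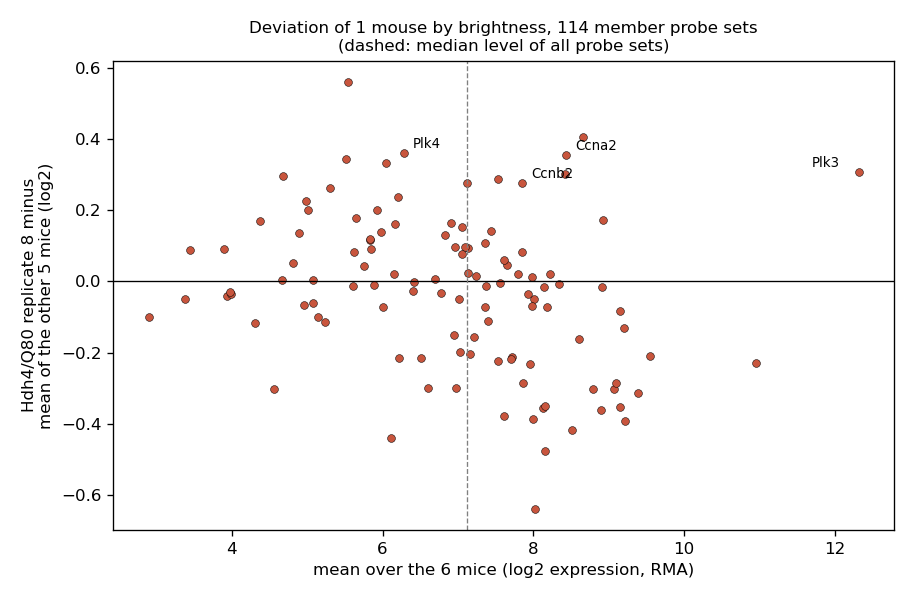
Hdh4/Q80 replicate 8 minus the mean of the other 5 mice (log2) against the mean level over 6 mice, for the 114 member probe sets; the dashed line is the median level of all probe sets. Brighter members lie mostly below 0, with 28 of 55 lowest in this mouse; Ccna2, Ccnb2 and Plk3 are labelled among those above 0, with Plk4 on the dimmer side.

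Genes of the same processes outside the naming rule were read on each gene's brightest probe set, and 0 passed in any list. The counts below stand beside 2.9% of all probe sets higher and 2.21% lower at an unadjusted p under 0.05. At an unadjusted p under 0.05, DNA replication had 0 of 30 genes higher and 2 lower: Prim2, a primase subunit (-0.24 ± 0.0712), and Rfc1, of the clamp loader (-0.18 ± 0.0724). Mitosis and spindle had 1 of 28 higher, Ube2c, the ubiquitin-conjugating enzyme of the anaphase-promoting complex (0.23 ± 0.08), and 0 lower; 21 of the 28 lay above 0, with a median of 0.035. Of all genes read the same way 46.7% lay above 0, and 57.0% of those below the median level, where 20 of the 28 lie. Ube2c read 7.04, 7.11 and 6.99 in wild type and 7.22, 7.42 and 7.20 in Hdh4/Q80 mice, with groups apart and replicate 8 highest. Centrosome and centriole genes had 1 of 23 higher, Rttn, which acts in centriole assembly (0.22 ± 0.0751), and 0 lower (median 0.066). Tubg1, the gamma-tubulin of the centrosome, differed by -0.18 ± 0.0867. The ubiquitin ligase list had 0 of 12 higher and 1 lower, Fbxw7 (-0.34 ± 0.134). The retinoblastoma and damage checkpoint list had 1 of 21 higher, Wee1, the kinase that holds Cdk1 inactive (0.20 ± 0.0704), and 0 lower.

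Markers of cells that could bring cycle or centriole transcripts into the dissection were read beside these results. None of these lists had a gene that passed after adjustment. Over all probe sets 2.9% were higher and 2.21% lower at an unadjusted p under 0.05, and groups did not overlap for 11.7%. The 9 microglial markers had list means of 8.33 to 8.40 in wild type and 8.11 to 8.30 in Hdh4/Q80 mice, with no overlap. Of the 9, 8 lay below 0 (median -0.11), 0 were higher and 4 lower at an unadjusted p under 0.05, and the groups did not overlap for 4. Only 2 of the 9 lie below the median level of all probe sets. Among all probe sets at or above that level 39.8% lay above 0, and replicate 8 was lowest in 45.8%. C1qb, a complement subunit of microglia, read 8.70, 8.83 and 8.92 against 8.57, 8.15 and 8.67, lowest in replicate 8. The 5 choroid plexus markers ran from 6.96 to 7.81 and from 7.06 to 8.41; 5 of the 5 lay above 0 (median 0.51) and 0 had an unadjusted p under 0.05. Ttr, the choroid plexus transthyretin, read 8.48, 8.32 and 10.26 against 8.46, 10.59 and 11.24. Plk4 read 6.59 and 6.54 in Hdh4/Q80 replicates 8 and 9, the 2 mice with the highest Ttr, 6.33 in replicate 7 and 6.11 in wild-type replicate 6.

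The 5 ependymal and multiciliated markers, cells with many centrioles, ran from 7.38 to 7.42 in wild type and from 7.33 to 7.56 in Hdh4/Q80 mice, with 3 above 0 and 0 at an unadjusted p under 0.05; Foxj1, their defining factor, differed by 0.03. The 11 progenitor and neuroblast markers ran from 7.58 to 7.75 and from 7.64 to 7.72, with 4 above 0 and 7 below. Of these only Dcx, of migrating neuroblasts, had an unadjusted p under 0.05 (0.24 ± 0.095, with overlapping groups). The 3 measured oligodendrocyte precursor markers ran from 8.45 to 8.59 and from 8.37 to 8.48, with 2 below 0. The 7 endothelial markers ran from 7.25 to 7.34 and from 7.24 to 7.28, with 5 above 0 and 1, Vwf, lower at an unadjusted p under 0.05. The 5 blood markers ran from 7.17 to 7.21 and from 7.10 to 7.17, with 3 above 0 and 1, Hba-a1, lower. In bulk tissue, fewer cells of a type and less RNA per cell cannot be told apart, and the part of these cells in the differences above was not tested.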

How the data were processed

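Striatal RNA was extracted with TRIzol and column cleanup and labelled with biotin by in vitro transcription, per the labels' protocols. The authors deposited log2 expression values per probe set made with RMA (affy package), per the submitters' processing notes. The sources used here give no versions or genome build. RMA equalises array distributions, so a global change in RNA would be removed, and it shrinks differences of dim and nearly saturated probe sets. Of 12488 probe sets 66 controls were left out; 10833 of the other 12422 name 1 gene, 396 several and 1193 none.

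Groups came from the sample titles. The labels show no batch, and each array was taken as 1 mouse. Genotypes were compared with limma 3.58.1 (R 4.3.3; lmFit, eBayes; degrees of freedom 4 residual, 5.81 prior), adjusted by Benjamini-Hochberg over all 12422 probe sets and a threshold of 0.05. In a test on simulated data (12422 probe sets, 200 changed) the fit called 99% of 1.5-fold and 100% of 2-fold changes, assuming equal spread on all arrays, with 15 false calls. These shares are not the power of the real comparison. The adjustment is stricter where fewer probe sets change. The real arrays also differed in spread (SD of deviations 0.179 for Hdh4/Q80 replicate 8, 0.072 to 0.119 for the others). The members and lists were chosen with earlier results of these data known, Plk4 among them. Named are members with an unadjusted p under 0.05, up to 3 of smallest p per role, a panel of core cycle genes, and up to 2 genes per outside list; other members are named for their role. Outside genes were read on their brightest probe set. Alternatives covered dim probe sets, normalization, moderation, array weights, gene means, Cdc42 effectors as members and leaving out each mouse. The number of arrays limits the precision.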

Additional observations from a re-analysis of the deposited data

How the results depend on the processing

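No paired analysis was possible because the groups share no replicate numbers. No member passed an adjusted p of 0.05 under any alternative run (0 in each, also with the 3 Cdc42 effector probe sets as members). The count of member probe sets with an unadjusted p under 0.05, 6, became 15 with array weights (13.2%, beside 14.6% of all probe sets there). Without the dimmest 40% it was 3 of the 68 members left (4.41%, beside 4.54%). With 1 mouse left out it ran from 2 without wild-type replicate 6 (2.02% of all probe sets) to 9 without Hdh4/Q80 replicate 7 (8.44%). The median difference of -0.0072 became 0.0092 with array weights and -0.022 without the dimmest 40%, and ran from -0.0079 to 0.013 with 1 mouse left out. With array weights the mutant values came mainly from replicate 7 (6.19, against 0.228 and 0.405 for replicates 8 and 9). All 114 members kept their direction in 1307 of 1436 alternative values, and 50 of them did so throughout. For the 36 probe sets with an unadjusted p under 0.05 or among the 3 of smallest p in their role, it was 442 of 454; the 6 with an unadjusted p under 0.05 and Plk4 among them did so throughout. The lowest adjusted p of any alternative was 0.126, with array weights. Among the 36, signs turned with array weights for Ccni (-0.0055), Cdk11b (0.0014), Cdk5r1 (0.10), Cdk5r2 (0.058) and Cenpx (-0.015). With a gene's probe sets averaged they turned for Ccni (-0.0040), Cdk11b (-0.038) and Mki67 (-0.00084). Without Hdh4/Q80 replicate 8 they turned for Ccni (-0.018), Cdk5r2 (0.053) and Cenpb (0.013), and without wild-type replicate 5 for Top2a (0.012). Over all single-mouse omissions the ranges for these 4 genes were -0.018 to 0.29, -0.20 to 0.053, -0.17 to 0.013 and -0.11 to 0.012. The cause was not tested. Without scanner files the signal over background of dim members is unknown.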
